A study of Mus musculus with 8 samples.

Results

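Structural cluster 3 of the mouse lung graft held the connective tissue cells, which the authors' table of cells names fibroblasts and smooth muscle cells. Its members were all cells that carry the number 3 in the authors' column of structural clusters, 345 of 5514 structural cells and of 20778 cells in all. Of these, 111 came from 5 B6→B6 grafts and 234 from 3 HLA→B6 grafts. The B6→B6 grafts were left lungs of C57BL/6 (B6) mice placed in B6 recipients. The HLA→B6 grafts were left lungs of HLA mice, which carry a human HLA-A2.1 transgene on the C57BL/6 background, placed in B6 recipients. All mice were male, none received immunosuppression, and every graft was taken 1 month after transplantation, dissociated, and loaded at 10000 cells for droplet sequencing of transcript 3′ ends. The transgene is no part of the mouse genome used for counting and both donor and recipient are B6, so donor cells and recipient cells of cluster 3 cannot be told apart.

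Fibroblasts of the lung lay down collagen and elastic fibres around airways, vessels and alveoli and keep the alveolar niche with growth factors and lipids. Mural cells, which are smooth muscle cells and pericytes, wrap vessels and airways and carry the contractile proteins. Both kinds of cell respond to interferon-γ (IFN-γ) by raising MHC class I, the immunoproteasome that makes its peptides, and interferon-inducible GTPases. In chronic rejection of a lung graft, fibroblasts fill the small airways with matrix.

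Cluster 3 was small in every graft, with 15, 6, 41, 42 and 7 cells in B6→B6 grafts 1 to 5 and 180, 25 and 29 cells in HLA→B6 grafts 1 to 3. HLA→B6 graft 1 thus gave more cluster 3 cells than the other 7 grafts together. A unique molecular identifier (UMI) marks each transcript molecule, so counts are molecules. Cluster 3 cells held a median of 1210 UMIs (357 to 15624) and 757 genes. Levels were compared over the 6 grafts with at least 10 cluster 3 cells, whose sums held 18289, 113229 and 109524 UMIs in B6→B6 grafts 1, 3 and 4 and 370885, 29366 and 35523 UMIs in HLA→B6 grafts 1 to 3. The sum of B6→B6 graft 1 was the smallest. In 23 of the 345 cells the barcode also occurred in another library, 4 of 15 in B6→B6 graft 1, 3 of 6 in graft 2 and 7 of 41 in graft 3. Mitochondrial transcripts were also unequal. The level of mt-Cytb, in CPM (the standard unit of counts scaled to a common library total), was between 1456 and 3129 in 4 grafts, 13410 in HLA→B6 graft 2 and 7964 in HLA→B6 graft 3.

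The label was checked against marker genes, as a description, since the clusters were drawn from these counts. Col1a1, a chain of type I collagen and the gene the study uses for these cells, had 745 UMIs in cluster 3, or 93.6% of all its UMIs in the 20778 cells. Its mean level over 6 grafts was 1053 CPM, and the highest mean of any other structural cluster was 18.1 (cluster 1). Of the 18 genes of the fibroblast list, 5 had over 90% of their UMIs in cluster 3, among them Dcn (decorin, which binds collagen fibrils, 97.0%), Col3a1 (92.0%) and Col1a2 (90.4%). A further 12 had between 50 and 90%, such as Pdgfra (78.4%), Inmt (66.1%) and Mfap4 (61.9%), and Pi16 had 5.06%. Mural genes were there too. Cox4i2 and Higd1b, both pericyte markers, averaged 1320 and 611 CPM in cluster 3, and at most 84.7 and 65.6 in another cluster. Of the genes of contractile smooth muscle, Acta2 had 153 UMIs, Tagln 114, Des 107, Tpm2 92 and Myh11 30, while Cnn1 had 0. Pdgfrb and Notch3, genes of mural cells, had 100 and 99 UMIs. The classical pericyte gene Rgs5 had 10 UMIs. Markers thus bore out the fibroblasts of the deposited name. The other cells carried genes of pericytes and of smooth muscle, and they are called mural here. In the mural-led cells defined below, Cox4i2 was seen in 76.0% and Higd1b in 58.0% of cells, but Rgs5 in 2.67%. Of the contractile genes above, Des was the most widespread in these cells, at 28.0%, with Acta2 at 15.3% and Myh11 at 14.7%. All these genes are in the list that set the class, and the kind of each cell was not tested.

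By the ratio of the mean level in cluster 3 to that of the next structural cluster, the 20 leading genes were Dcn, Upk3b, Col1a2, Meg3, Col6a3, Col1a1, Mfap5, Col3a1, Cdh11, Rarres2, Loxl1, Wisp2, Fbln1, Col6a2, Olfml3, Foxf2, Saa3, Notch3, Nkain4 and Col6a1. Dcn led with 2003 CPM against 9.59 in cluster 6, the next highest. Matrix genes were the most numerous. The collagens were Col1a1, Col1a2 and Col3a1 of the fibrils and Col6a1, Col6a2 and Col6a3 of the microfibrils next to cells. Cdh11 (the cadherin of mesenchymal cells), Loxl1 (a crosslinker of elastin) and Fbln1 (a matrix glycoprotein) belong to fibroblasts, and Notch3 is the mural Notch receptor. Upk3b and Nkain4 mark mesothelial cells, which line the pleura. Upk3b rested on 1 graft and stood at 760 CPM in HLA→B6 graft 3 and at 73.0 or less in the other 5 grafts. Nkain4 stood at 760 in that graft and at 34.1 to 383 in the others, and at 263 CPM in mural-led and 146 in fibroblast-led cells as defined below, while Upk3b had 0 UMIs in mural-led cells. In 5 cells of the cluster mesothelial UMIs outnumbered those of both other lists.

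Cells were split by the UMIs of 18 fibroblast and 22 measured mural genes, which gave 178 fibroblast-led cells (51.6%), 150 mural-led cells (43.5%) and 17 undecided cells with equal numbers. The split is a range of a score and not a type, since 43 cells lay within 1 UMI and 84 within 2 UMIs of the border. Of the 114 cells with at least 10 UMIs of the fibroblast list, 6 also had at least 10 of the mural list. Fibroblast-led cells were deeper, with a median of 1601 UMIs against 1008.5 in mural-led cells. A list of 10 endothelial genes was at 7139 CPM in mural-led and 3408 in fibroblast-led cells. At least 2 UMIs of that list were in 62.0% of mural-led and 39.3% of fibroblast-led cells. B6→B6 grafts 1 to 5 held 8, 4, 29, 25 and 5 fibroblast-led and 7, 2, 11, 15 and 2 mural-led cells. HLA→B6 grafts 1 to 3 held 91, 6 and 10 fibroblast-led and 77, 18 and 18 mural-led cells.

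**Figure D1:**
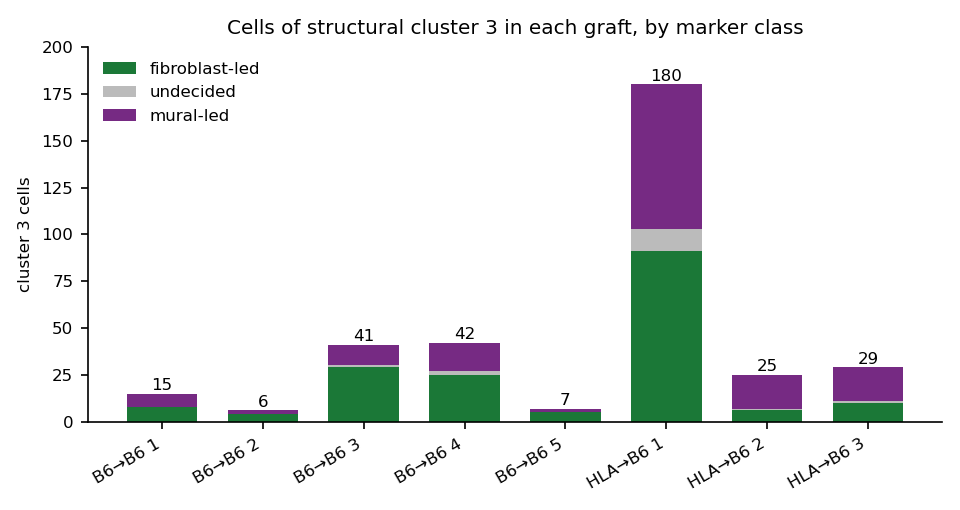
Cluster 3 cells in each of the 8 grafts (bars, number of cells), split by whether UMIs of the fibroblast list or of the mural list were more numerous. HLA→B6 graft 1 holds 180 of the 345 cells, and mural-led cells outnumber fibroblast-led cells in HLA→B6 grafts 2 and 3 (18 against 6 and 18 against 10).

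**Figure D2:**
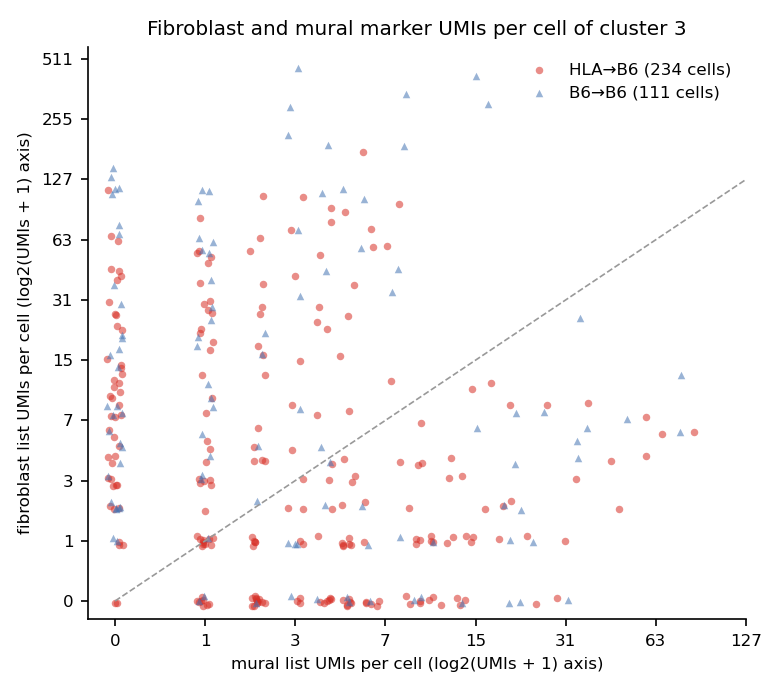
Each point is 1 of the 345 cluster 3 cells, with its UMIs of the mural list across and of the fibroblast list up, on log2(UMIs + 1) axes with a small random shift, and the dashed line marks equal numbers. Cells with many UMIs of a list lie near the axis of that list, up to 479 fibroblast and 83 mural UMIs, and the lower left corner holds the cells that the split cannot place.

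Outside the 2 marker lists, the genes given next were picked for the largest ratios between the classes. They describe the split and do not test it. Fibroblast-led cells held Mmp2, a protease of collagen, at 376 CPM in 24 cells of B6→B6 and 22 cells of HLA→B6 grafts, and mural-led cells held none. Elastin (Eln) was at 3256 against 167 CPM, matrix Gla protein (Mgp), an inhibitor of calcification, at 12555 against 588, and complement C3 at 1285 against 48.3. Saa3, an acute phase protein, was seen in 4 fibroblast-led cells of B6→B6 and 8 of HLA→B6 grafts, and 1 cell held 135 of its 385 UMIs. Mural-led cells led in Spp1 (osteopontin, a secreted phosphoprotein), with 2483 against 58.2 CPM, seen in 9 B6→B6 and 59 HLA→B6 cells. They also led in Pdzd2 (1163 against 130), Postn (periostin, 807 against 82.9), Pde5a (the phosphodiesterase of cyclic GMP, 531 against 47.0) and Vtn (vitronectin, 232 against 2.24). These are levels over pooled cells without a test. Hemoglobin genes also led in mural-led cells, but 1 cell held 584 of the 951 UMIs of Hba-a1.

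The comparison of grafts asked first whether cluster 3 was larger after HLA→B6 transplantation. Cluster 3 made up 1.11 ± 0.524% (SD, n = 5) of all cells of B6→B6 grafts and 1.95 ± 1.05% (n = 3) of HLA→B6 grafts, a difference of 0.837 percentage points that did not pass a two-sided exact permutation test (p = 0.214, smallest possible 0.0357). By graft the shares were 1.58, 0.444, 1.68, 1.02 and 0.806% in B6→B6 and 2.75, 0.760 and 2.33% in HLA→B6. HLA→B6 grafts 1 and 3 lay above all B6→B6 grafts and graft 2 lay below 4 of them. Counting error alone spans 2.37 to 3.18% in HLA→B6 graft 1 and 0.163 to 0.965% in B6→B6 graft 2 (95% exact binomial interval). Fibroblast-led cells alone differed by 0.0881 percentage points (exact permutation p = 0.786) and mural-led cells alone, a comparison added after the data were seen, by 0.669 (exact permutation p = 0.0714). Of structural cells, cluster 3 made up 5.02 ± 1.18% in B6→B6 (SD, n = 5) and 6.75 ± 2.82% in HLA→B6 grafts (n = 3), a difference of 1.73 percentage points (exact permutation p = 0.321). Mural-led cells made up 46.7, 26.8 and 35.7% of cluster 3 in B6→B6 grafts 1, 3 and 4 and 42.8, 72.0 and 62.1% in HLA→B6 grafts 1 to 3, or 36.4 ± 9.94% against 58.9 ± 14.9% (SD, n = 3 each). The groups overlapped, and the exact permutation p of 0.2 compares with a smallest possible p of 0.1 for 3 against 3.

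The expression of 1260 genes was then compared between 3 B6→B6 and 3 HLA→B6 grafts over the UMIs summed per graft. In such a sum, fewer cells of a kind and less RNA per cell cannot be told apart. A total of 4 genes passed an adjusted p of 0.05 by edgeR's quasi-likelihood test, 0.317% of those tested, and 164 had an unadjusted p under 0.05. Iigp1, an interferon-inducible GTPase, and H2-Q7, a nonclassical MHC class I gene, rose in HLA→B6 grafts. Fos, a subunit of the AP-1 transcription factor, and Cyr61 (Ccn1), a matricellular protein that YAP and serum induce, fell. In CPM scaled by the trimmed mean of M values (TMM), Iigp1 was at 0, 62.5 and 49.1 in B6→B6 grafts 1, 3 and 4 and at 424, 710 and 250 in HLA→B6 grafts 1 to 3. Its log2 fold change was 3.14 (SE 0.54, adjusted p = 0.046). H2-Q7 was at 50.2, 125 and 88.3 against 495, 922 and 638 (log2 fold change 2.73, SE 0.45, adjusted p = 0.046). H2-Q6, whose sequence is nearly that of H2-Q7, had a log2 fold change of 3.10 that did not pass (adjusted p = 0.0768), and counts can be shared between these 2 genes. Fos was at 703, 732 and 1982 in B6→B6 grafts and at 68.4, 0 and 27.7 in HLA→B6 grafts (log2 fold change -4.47, SE 0.64, adjusted p = 0.0268). Cyr61 was at 502, 857 and 599 against 147, 106 and 55.5, a log2 fold change of -2.51 (SE 0.44, adjusted p = 0.046). For all 4 genes the groups did not overlap, but several levels rested on few UMIs. Iigp1 had 0, 7 and 5 UMIs in these B6→B6 grafts and 161, 20 and 9 in the HLA→B6 grafts. H2-Q7 had 1, 14 and 9 against 188, 26 and 23. Fos had 14, 82 and 202 against 26, 0 and 1, and Cyr61 had 10, 96 and 61 against 56, 3 and 2. Of all genes tested, 12.8% had every HLA→B6 graft above every B6→B6 graft and 8.65% had every one below, with a median log2 fold change of 0.02. Among the genes of smallest p that did not pass and are in no list below, Gngt2 (1.57, SE 0.35) and Pitpnc1 (1.56, SE 0.36) had positive log2 fold changes, and Rasl11b (-1.61, SE 0.39) and Cst3 (cystatin C, -1.63, SE 0.45) negative ones.

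These 4 calls rested on few grafts. Without B6→B6 graft 1, which had the fewest cells, 27 genes passed, 7 higher and 20 lower, all 4 among them. Without HLA→B6 graft 1 there were 10 calls, without B6→B6 graft 3 there was 1 (Fos), and without B6→B6 graft 4 or HLA→B6 graft 2 there were 0. Without HLA→B6 graft 3 there were 4, of which Iigp1 was the single one of those named above. Over all cells, the libraries of B6→B6 grafts 1, 2 and 3 and HLA→B6 graft 2 are linked by shared barcodes. With that linked set as a block, Fos, H2-Q7 and Iigp1 passed, H2-Q6 (log2 fold change 3.46, adjusted p = 0.0272) and Egr1 (-4.16, adjusted p = 0.0272) passed too, and Cyr61 did not (-2.42, adjusted p = 0.0693). The 7 higher genes of the fit without B6→B6 graft 1 were Iigp1, H2-Q7, H2-Q6, Igtp, Gbp2, Ly6a and Hba-a2. Among the 20 lower ones were Col1a1 (log2 fold change -3.27), Col1a2 (-2.55), Col3a1 (-2.35), Eln (-4.58), Tnc (-5.77) and Mmp2 (-3.20), besides Tyrobp (-4.61), a gene of myeloid cells. DESeq2 on the sums of all 6 grafts made 27 calls too, 13 of them shared with that fit. Leaving out the 73 cells with at least 2 UMIs of leukocyte, epithelial or blood genes gave 0 calls among 459 genes tested (51 at an unadjusted p under 0.05), and leaving out the cells with a shared barcode gave 0 among 744 (75). Over all settings in which a gene was tested, the log2 fold change lay between 2.58 and 3.49 for Iigp1, 2.28 and 3.03 for H2-Q7, -6.09 and -3.67 for Fos, and -3.14 and -2.03 for Cyr61.

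**Figure D3:**
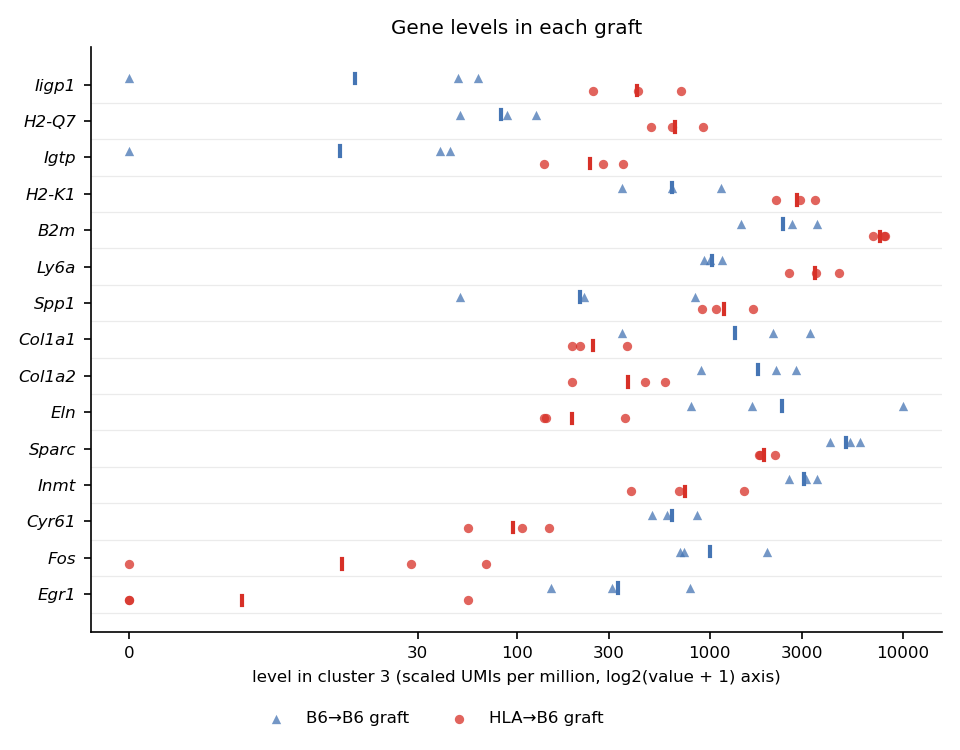
Level of 15 genes in cluster 3 of 3 B6→B6 (triangles) and 3 HLA→B6 (circles) grafts, in TMM-scaled CPM on a log2(value + 1) axis, with bars at the mean of the plotted log values. Iigp1, H2-Q7, Cyr61 and Fos passed the test, the groups of Col1a1 overlap, and those of the other genes lie apart without passing.

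MHC class I and IFN-γ response genes stood higher in HLA→B6 grafts as a list. Of its 30 members 13 had counts enough for a test, 1 (Iigp1) rose, and the other 12 had a positive log2 fold change without passing. In 11 of the 13 every HLA→B6 graft lay above every B6→B6 graft, against 12.8% of all genes, and their median log2 fold change was 1.54. The summed level of the list was 5413, 8514 and 6236 CPM in B6→B6 grafts 1, 3 and 4 and 19688, 23667 and 18129 in HLA→B6 grafts 1 to 3, so it was 3.05 times as high in HLA→B6 grafts on average. Among the presenting molecules, B2m, the light chain of MHC class I, was at 1456, 3581 and 2649 scaled CPM against 6980, 8018 and 7964 (log2 fold change 1.54, SE 0.46, adjusted p = 0.181). The heavy chain H2-K1 was at 351, 1143 and 638 against 2208, 3512 and 2941 (1.93, SE 0.47, adjusted p = 0.114) and H2-D1 at 1406, 2250 and 1619 against 5074, 4825 and 3330 (1.30, SE 0.41, adjusted p = 0.2). Both heavy chains were higher in every HLA→B6 graft. Of the peptide makers and loaders, the immunoproteasome subunits Psmb8 and Psmb10 had log2 fold changes of 1.60 and 1.45, and the loading factor Tapbp 0.88. Of the GTPases, Igtp was at 0, 44.7 and 39.3 against 279, 355 and 139 (2.75, SE 0.51, adjusted p = 0.0583) and Tgtp2 at 50.2, 53.6 and 29.4 against 137, 248 and 277 (2.10, SE 0.56).

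The list's shift was seen in both classes of cells and without the cells of mixed lineage. In fibroblast-led cells its summed level was 5538, 8491 and 6041 CPM in B6→B6 grafts 1, 3 and 4 and 20635, 25702 and 22678 in HLA→B6 grafts 1 to 3. Mural-led cells gave 5328, 8268 and 7212 against 18352, 22838 and 12833. With the 73 mixed cells left out, all cluster 3 cells gave 5413, 8149 and 6713 against 19483, 25280 and 18885. No HLA→B6 value lay below a B6→B6 value in these 3 sets. Endothelial genes moved with the groups as well. The summed endothelial list was 3445, 3374 and 3250 CPM in B6→B6 grafts and 5689, 5857 and 5489 in HLA→B6 grafts, with all 7 tested members positive and none past the threshold, and Pecam1 at 301, 384 and 285 against 592, 816 and 499 scaled CPM. Cluster 0, the largest structural cluster, held that list at 15698 CPM and the MHC class I and IFN-γ list at 25235. The mixed cells were set by leukocyte, epithelial and blood genes, so cells with endothelial RNA stayed in all 3 sets. In fibroblast-led cells the endothelial list was at 1216, 3053 and 2656 CPM against 3828, 3736 and 6746. Without the mixed cells it was at 3445, 3667 and 5442 against 5584, 5630 and 6687. In mural-led cells it was at 4961, 5082 and 5459 against 8246, 6723 and 4022, which overlap. The part of endothelial RNA in the shift of the MHC class I and IFN-γ list was not tested.

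Type I interferon-stimulated genes were higher in part. All 7 tested members had a positive log2 fold change with a median of 0.79, 4 had all HLA→B6 grafts above (12.8% of all genes), and none passed. Ifitm3, which blocks entry of viruses, was at 1857, 1688 and 1697 scaled CPM against 3698, 4825 and 2941 (log2 fold change 1.11, SE 0.39, adjusted p = 0.238). Ifitm2 did not follow, with 1506, 1474 and 2051 against 2029, 1632 and 1804. Bst2 (tetherin) had a log2 fold change of 1.04 (SE 0.43, adjusted p = 0.339).

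The promoters of the MHC class I and IFN-γ genes are shown because the list shifted together. Windows of 300 bases, 250 before and 50 from the transcript start on, were taken from RefSeq (GRCm38.p6) and matched 11 of the 13 tested genes by symbol. Both strands were searched for the interferon-stimulated response element, ISRE, the letters GAAA followed by NN and GAAA, and for the γ-activated site, GAS, written TTCNNNGAA, where N is any base and which can overlap each other. The ISRE letters occurred in 5 of the 11 genes (B2m, H2-T23, Psme1, Igtp and Tgtp2) and in 3.44% of all 32851 windows. The GAS letters occurred in 3 of the 11 (Psmb8, Igtp and Tgtp2) and in 8.3% of all windows. Both occurred in Igtp and Tgtp2 and in 0.454% of all windows. In each window below, written 5′ to 3′ on the strand of the gene, capitals mark the motif letters.
Igtp (chr11:58199306-58199605, + strand): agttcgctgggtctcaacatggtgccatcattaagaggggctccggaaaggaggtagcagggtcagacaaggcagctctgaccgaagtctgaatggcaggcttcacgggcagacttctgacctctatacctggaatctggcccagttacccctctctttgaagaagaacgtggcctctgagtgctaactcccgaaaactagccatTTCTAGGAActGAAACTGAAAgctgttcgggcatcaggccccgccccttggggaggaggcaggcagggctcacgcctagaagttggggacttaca
Tgtp2 (chr11:49064163-49064462, - strand): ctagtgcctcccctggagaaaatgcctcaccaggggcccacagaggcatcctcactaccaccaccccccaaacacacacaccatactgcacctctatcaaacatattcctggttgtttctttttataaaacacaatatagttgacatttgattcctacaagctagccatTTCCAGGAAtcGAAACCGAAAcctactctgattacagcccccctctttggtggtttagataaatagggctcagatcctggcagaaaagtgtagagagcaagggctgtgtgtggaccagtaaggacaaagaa
Psmb8 (chr17:34197945-34198244, + strand): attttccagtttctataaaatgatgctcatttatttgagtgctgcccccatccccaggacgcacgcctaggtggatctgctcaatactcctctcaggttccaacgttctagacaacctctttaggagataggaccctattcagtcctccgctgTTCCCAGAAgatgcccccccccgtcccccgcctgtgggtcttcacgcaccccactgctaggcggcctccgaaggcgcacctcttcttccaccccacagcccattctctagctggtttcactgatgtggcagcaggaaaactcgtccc
B2m (chr2:122147437-122147736, + strand): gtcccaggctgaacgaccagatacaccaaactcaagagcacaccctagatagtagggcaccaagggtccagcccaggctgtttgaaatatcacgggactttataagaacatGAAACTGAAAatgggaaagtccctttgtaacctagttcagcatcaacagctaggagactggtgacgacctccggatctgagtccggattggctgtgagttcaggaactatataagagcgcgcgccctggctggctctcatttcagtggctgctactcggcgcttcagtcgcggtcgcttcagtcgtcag
In Igtp the GAS letters run from -45 to -37 and the ISRE letters from -34 to -25 of the transcript start, and in Tgtp2 they run from -81 to -73 and from -70 to -61, with the same gap and order. The single match of Psmb8 lies at -97 to -89 and that of B2m at -139 to -130. The matches describe letters in these windows and not binding.

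MHC class II genes depended on which cells were kept. Over all cluster 3 cells the list was at 164, 9900 and 11386 CPM in B6→B6 grafts 1, 3 and 4 and at 12042, 11714 and 5771 in HLA→B6 grafts, and the groups overlapped. Of 6 genes tested, 3 had a positive and 3 a negative log2 fold change and none passed. H2-Ab1, a class II β chain, had a log2 fold change of -0.23 (SE 0.67), H2-Aa, an α chain, one of -0.20 (SE 0.77), and Cd74, the invariant chain, one of 0.73 (SE 0.97). Without the mixed cells the list was at 164, 2277 and 2070 against 9101, 12938 and 6225, and the groups lay apart. H2-Ab1 then had a log2 fold change of 1.86 (adjusted p = 0.142). In mural-led cells the list was at 184, 3489 and 2404 against 11606, 10084 and 5235, with all 4 tested genes without overlap (18.0% of all genes in that direction). In fibroblast-led cells it was at 135, 10836 and 13666 against 12057, 17035 and 6383, which overlap. Of 6 tested genes 0 had both HLA→B6 grafts above (16.6% of all genes) and 2 had both below (21.5%), with a median log2 fold change of -0.43. The methods of the study name H2-Ab1, H2-Aa, H2-Eb1 and Cd74 among the genes used to estimate free RNA. T cells held the MHC class II list at 138 CPM and cluster 0 at 18616.

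Genes of the collagen fibril were lower in HLA→B6 grafts without passing the test. Col1a1 was at 351, 2117 and 3287 scaled CPM in B6→B6 grafts 1, 3 and 4 and at 371, 213 and 194 in HLA→B6 grafts 1 to 3. Its log2 fold change was -2.81 (SE 0.65, adjusted p = 0.0992), and B6→B6 graft 1 lay within the HLA→B6 range. Col1a2, the other chain of type I collagen, was at 904, 2804 and 2198 against 590, 461 and 194 (-2.22, SE 0.52, adjusted p = 0.102), without overlap. Col3a1 was at 452, 4162 and 1805 against 858, 213 and 610 (-1.91, SE 0.69, adjusted p = 0.246). Dcn and Bgn, small proteoglycans that bind fibrils, overlapped, with log2 fold changes of -0.81 (SE 0.83) and -0.79 (SE 0.41). Of 10 tested members of the list 9 had a negative log2 fold change, 4 had all HLA→B6 grafts below (8.65% of all genes) and the median was -1.01. The list's sum was 14528 ± 6570 CPM in B6→B6 and 5948 ± 2066 in HLA→B6 grafts (SD, n = 3 each).

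Elastic fibre genes were lower in the same way, and basement membrane genes in part. Eln was at 803, 10020 and 1648 scaled CPM against 366, 142 and 139 (log2 fold change -4.13, SE 0.91, adjusted p = 0.0992). The groups lay apart, with B6→B6 graft 3 far above the others, and 1 cell held 695 of the 1454 Eln UMIs of fibroblast-led cells. Mfap4, a microfibril protein, was at 1104, 2447 and 726 against 416, 355 and 388 (-1.91, SE 0.49, adjusted p = 0.138), and Ltbp4, which holds latent TGF-β, was at 402, 536 and 353 against 390, 248 and 388. All 7 tested members of the elastic fibre list were negative with a median of -1.32. Sparc, a matricellular protein that binds collagen, was at 4166, 5323 and 5956 against 2163, 1809 and 1804 (-1.43, SE 0.40, adjusted p = 0.156). Its groups were far apart. The type IV collagens of the basement membrane did not follow, with log2 fold changes of -0.12 (SE 0.36) for Col4a1 and 0.49 (SE 0.48) for Col4a2. The basement membrane list as a whole was at 6233, 8001 and 7761 CPM against 3861, 3712 and 3885. Sparc is a member and made up a large part of these sums, and the list without Sparc was not tested. Of the list's 4 tested genes 3 were negative and none passed, with a median log2 fold change of -0.50. In 2 of them all HLA→B6 grafts lay below (8.65% of all genes).

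The matrix genes are genes of fibroblasts, and the mix of cells differed between the grafts. The fibroblast list was at 8256, 23113 and 16471 CPM in B6→B6 grafts 1, 3 and 4 and at 7461, 2486 and 6503 in HLA→B6 grafts, while mural-led cells were 46.7, 26.8 and 35.7% against 42.8, 72.0 and 62.1% of the cells. The part of this mix in the matrix values was not tested over all 6 grafts. Within fibroblast-led cells, where 2 B6→B6 (3 and 4) and 2 HLA→B6 grafts (1 and 3) had 10 cells, no gene of 1662 passed and 106 had an unadjusted p under 0.05. There Col1a1 was at 2375 and 4177 scaled CPM against 621 and 236 (log2 fold change -2.74, SE 0.56, adjusted p = 0.204), and Eln at 11232 and 2101 against 588 and 142. Dcn was at 4536 and 4203 against 2854 and 4582. Of 15 tested collagen genes in these cells, 8 had both HLA→B6 grafts below both B6→B6 grafts, against 21.5% of all genes, and 1 had both above, against 16.6%. Col1a1, Col1a2, Col3a1 and Dcn are genes of the list that set the class, so their levels within it are not independent of the split.

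Alveolar fibroblast genes were lower across the cluster. Their list, with Npnt (nephronectin, an integrin ligand), Tcf21 (a transcription factor of lipofibroblasts) and Inmt (indolethylamine methyltransferase), was at 4429, 4177 and 4191 CPM in B6→B6 and at 2437, 851 and 1295 in HLA→B6 grafts. Inmt was at 2560, 3161 and 3591 scaled CPM against 1505, 390 and 694 (log2 fold change -1.79, SE 0.50, adjusted p = 0.16). All 4 tested members were negative, 3 of them with all HLA→B6 grafts below (8.65% of all genes), and none passed. The adventitial list, with Pi16 and Dpt (dermatopontin), was at 109, 2826 and 1141 against 1011, 409 and 816, and overlapped. Pdgfra, the receptor that marks fibroblasts, was at 301, 259 and 128 against 142, 35.5 and 55.5 scaled CPM.

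The mural list itself ranged from 1952 to 12248 CPM in B6→B6 grafts and from 2869 to 6027 in HLA→B6 grafts. In the cluster as a whole Acta2, smooth muscle actin, was at 2309, 304 and 196 scaled CPM against 71.1, 213 and 55.5 (log2 fold change -3.12, SE 0.99, adjusted p = 0.198). The comparison within mural-led cells was added after the data were seen, over B6→B6 grafts 3 and 4 and HLA→B6 grafts 1 to 3. There 3 of 372 genes passed (0.806%), and all 3 fell in HLA→B6 grafts. Acta2 was at 1729 and 832 scaled CPM against 68.0, 292 and 122 (log2 fold change -3.42, SE 0.67, adjusted p = 0.0427). Cald1 (caldesmon, which holds actin and myosin in smooth muscle) was at 1650 and 1077 against 354, 243 and 183 (-2.26, SE 0.43, adjusted p = 0.0427). Igfbp7, a secreted binder of growth factors, was at 2672 and 979 against 170, 48.6 and 244 (-3.54, SE 0.56, adjusted p = 0.02). Acta2 is a gene of the list that set the class, and the B6→B6 sums come from 11 and 15 cells. Pericyte genes in these cells had a median log2 fold change of -0.55 over 5 tested genes, none of which passed.

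Immediate early genes, which cells switch on within minutes of a stimulus, were lower in HLA→B6 grafts over all cluster 3 cells. Of 16 tested, 1 (Fos) fell, 13 more were negative without passing, and 8 had all HLA→B6 grafts below, against 8.65% of all genes. Egr1, a zinc finger factor, was at 151, 313 and 795 scaled CPM against 55.3, 0 and 0 (log2 fold change -3.46, SE 0.69, adjusted p = 0.0768). Junb, a partner of Fos, was at 1255, 1063 and 2139 against 492, 71.0 and 0 (-2.57, SE 0.76, adjusted p = 0.18), and Zfp36, which destabilises cytokine messages, at 151, 313 and 549 against 118, 35.5 and 27.7 (-2.04, SE 0.50, adjusted p = 0.114). Klf2 and Klf4 went the other way, and Klf2 was at 1205, 750 and 1276 against 2206, 1596 and 1387 (0.70, SE 0.39, adjusted p = 0.491). Both are also genes of endothelial cells. Heat shock gene Hspa8 and the phosphatase gene Dusp1 overlapped. In fibroblast-led cells 10 of 16 tested genes had both HLA→B6 grafts below both B6→B6 grafts (21.5% of all genes), with a median log2 fold change of -0.90. In mural-led cells 0 of 7 tested genes had all HLA→B6 grafts below (11.0% of all genes), with a median of -0.02.

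**Figure D4:**
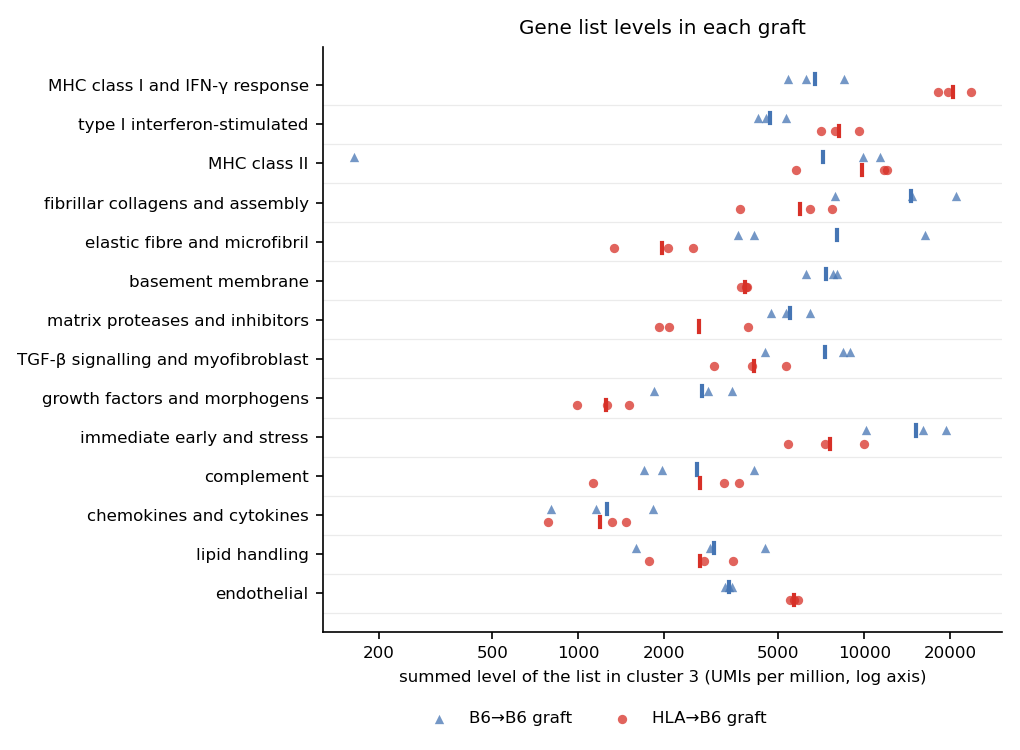
Summed level of 14 gene lists in cluster 3 of 3 B6→B6 (triangles) and 3 HLA→B6 (circles) grafts, in CPM on a log axis, with bars at the arithmetic mean. The MHC class I and IFN-γ list has its 3 HLA→B6 grafts at 18129 to 23667 and its B6→B6 grafts at 5413 to 8514. The MHC class II, TGF-β, complement, chemokine and lipid lists overlap. All other lists plotted are also apart, by little for the fibrillar collagen and the immediate early lists. Sparc is a large part of the basement membrane sums.

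Genes of TGF-β signalling and myofibroblasts were divided. Of 10 tested, Cyr61 fell, 7 more were negative and 2 positive without passing. Spp1 was at 50.2, 223 and 844 scaled CPM in B6→B6 and at 1079, 1667 and 916 in HLA→B6 grafts (log2 fold change 1.54, SE 0.61, adjusted p = 0.312). Spp1 is a gene of mural-led cells here, and within them it was at 1415 and 3965 against 2674, 2187 and 1645. Postn, which myofibroblasts secrete, was at 1155, 411 and 226 against 261, 710 and 388. Fn1 (fibronectin) was at 402, 1384 and 363 against 342, 35.5 and 0 (-2.04, SE 0.81, adjusted p = 0.31).

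Proteases, inhibitors and growth factors were mostly at lower levels. The list of proteases and inhibitors was at 4702, 6456 and 5323 CPM against 3910, 2077 and 1914. Its inhibitors of metalloproteases, Timp3 and Timp2, had log2 fold changes of -0.87 (SE 0.42, adjusted p = 0.4) and -0.62 (SE 0.35, adjusted p = 0.496), with all HLA→B6 grafts below, and Serping1, the inhibitor of complement C1, overlapped. Growth factors and morphogens were at 2843, 3453 and 1835 against 1502, 1260 and 985. All 5 tested members were negative and none passed. Bmp4, a morphogen of the lung mesenchyme, was at 301, 304 and 157 scaled CPM against 86.9, 142 and 27.7 (-1.50, SE 0.46, adjusted p = 0.185). Gas6 (ligand of the TAM receptors) had a log2 fold change of -0.77 (SE 0.58) and Pdgfa one of -0.94 (SE 0.57), and both overlapped. Fgfr1, a receptor of fibroblast growth factors that is outside the list, was at 198 ± 53.0 scaled CPM in B6→B6 and 58.0 ± 24.0 in HLA→B6 grafts (SD, n = 3 each, log2 fold change -1.86, SE 0.43, adjusted p = 0.0992).

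The summed levels of secreted immune proteins overlapped between the groups. The chemokine and cytokine list was at 1148, 1828 and 803 CPM in B6→B6 and 1316, 783 and 1464 in HLA→B6 grafts. Cxcl12, the one member with counts enough for a test, was at 50.2, 536 and 147 scaled CPM against 305, 71.0 and 694 (log2 fold change 0.31, SE 0.72). The complement list was at 1968, 4107 and 1698 against 3659, 1124 and 3237. Its 6 tested members were 3 positive and 3 negative, among them C3 (0.46, SE 0.68) and C4b (-0.06, SE 0.82), which were high in B6→B6 graft 3 and in HLA→B6 grafts 1 and 3. Some members with too few counts for a test were seen in HLA→B6 grafts alone. C1qa, a chain of complement C1q, had 0 UMIs in all 5 B6→B6 grafts and 9, 4 and 4 in HLA→B6 grafts 1 to 3, and C1qb had 0 against 14, 2 and 5. The IFN-γ-induced chemokines Cxcl9 and Cxcl10 had 0 UMIs in the B6→B6 grafts against 25, 2 and 0 and against 15, 2 and 0. C1q is known as a product of macrophages. The leukocyte list, however, overlapped between the groups, at 0, 857 and 1717 CPM against 466, 817 and 197. The share of all genes seen in HLA→B6 grafts alone is not given here, and HLA→B6 graft 1 held the largest sum of UMIs. Lipid genes were at 1586, 4513 and 2876 against 3484, 1771 and 2759. Cd36, the fatty acid carrier, was at 151, 411 and 579 scaled CPM against 947, 851 and 1110 (1.22, SE 0.41, adjusted p = 0.218), while Apoe and Lrp1 overlapped. Cell cycle genes were at 273 to 336 CPM in B6→B6 and 272 to 338 in HLA→B6 grafts, and Stmn1, the one tested, had a log2 fold change of -0.07 (SE 0.34). The list held 5 to 122 UMIs per graft, so that a small difference was not detectable at this depth.

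RNA of other cell types was present. At least 2 UMIs of the endothelial list were in 175 of 345 cells, of the leukocyte list in 35, of the epithelial list in 21 and of the erythroid and platelet list in 31. Of the defining genes, Epcam (epithelium) had 0 UMIs in cluster 3, which allows up to 3 of 691065, and Ptprc (leukocytes) had 25. The epithelial list was at 61.8 to 146 CPM in B6→B6 and 189 to 422 in HLA→B6 grafts. The leukocyte list was at 0, 857 and 1717 against 466, 817 and 197. Erythroid and platelet genes were at 0, 88.3 and 603 against 7539, 545 and 1942. For the removal of free RNA, the methods of the study name hemoglobin, MHC class II, club cell, type II cell, B cell and macrophage genes and genes of other structural cells. The first 2 kinds are in lists of their own above, and the other 11 genes were at 4156, 6032 and 5734 against 9531, 10897 and 8473. Of these genes, Ly6a and Ly6c1, which endothelial cells also express, had log2 fold changes of 1.78 (SE 0.40) and 1.94 (SE 0.44, both adjusted p = 0.0992), and other endothelial genes among those next to the threshold were Adgrf5 (1.77) and Ptprb (1.83). Their part in the results was not tested. At 500 UMIs per cell cluster 3 cells held 368 ± 6.88 genes in B6→B6 and 375 ± 6.27 in HLA→B6 grafts (SD, n = 3 each, exact permutation p = 0.3), and without thinning the medians per graft ran from 510 to 947.5 in these 6 grafts.

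Whether the difference between the groups was another one in cluster 3 than in cluster 0 was tested as an interaction, with the graft as a block and both clusters from the same 6 libraries. A total of 3 of 2839 genes passed by edgeR (0.106%). Cyr61 and Thbs1 were among them, both lower in HLA→B6 grafts in cluster 3 and higher in cluster 0. Cyr61 was at 472, 935 and 662 scaled CPM in cluster 3 of B6→B6 grafts and at 156, 102 and 57.9 in HLA→B6 grafts, and in cluster 0 at 16.0, 2.60 and 23.7 against 47.3, 72.0 and 38.4 (difference of log2 fold changes -4.76, SE 0.67, adjusted p = 0.000921). Thbs1, thrombospondin 1, which activates TGF-β, was at 519, 350 and 130 against 106, 33.8 and 29.0 in cluster 3 and at 8.02, 5.21 and 0 against 32.0, 86.9 and 38.4 in cluster 0 (-5.03, SE 0.86, adjusted p = 0.00853). For neither gene did the groups overlap in either cluster. The B6→B6 levels in cluster 0 were near the floor, at 2.60 to 23.7 for Cyr61 and 0 to 8.02 for Thbs1. The rise in cluster 0 thus rests on few UMIs in these grafts. The count was 0 without B6→B6 graft 3 and 0 with a minimum count of 30. Against cluster 1, 20 of 2845 genes passed (0.703%), 18 of them negative, with Thbs1, Cyr61 and Col1a1 among them, besides genes of macrophages (Tyrobp, Ctss, Lyz2 and Wfdc17). Of these, Ctss was at 0, 0 and 18.8 scaled CPM in cluster 1 of B6→B6 and at 165, 847 and 183 in cluster 1 of HLA→B6 grafts.

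**Figure D5:**
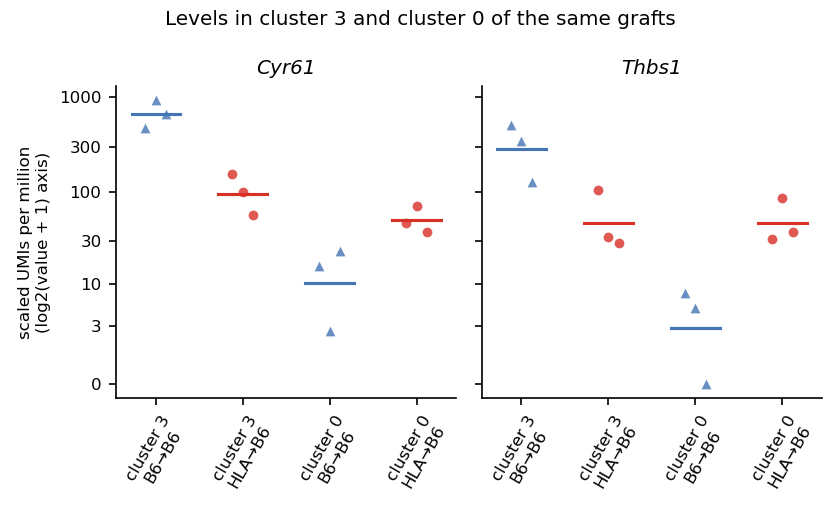
Levels of Cyr61 and Thbs1 in cluster 3 and in cluster 0 of the same 6 grafts, in TMM-scaled CPM on a log2(value + 1) axis, with lines at the mean of the plotted log values. In cluster 3 all HLA→B6 grafts (circles) lie below all B6→B6 grafts (triangles), and in cluster 0, where the B6→B6 levels are near the floor, they lie above.

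The MHC class I and IFN-γ genes gave no call in the interaction with cluster 0. In a fit of cluster 0 by itself over these grafts, Iigp1 was at 186, 169 and 161 scaled CPM in B6→B6 and 509, 930 and 314 in HLA→B6 grafts (log2 fold change 1.79, SE 0.34), beside 3.14 (SE 0.54) in cluster 3. B2m was at 4832, 7095 and 5520 against 8681, 10452 and 10278 (0.76, SE 0.25), beside 1.54 (SE 0.46). H2-K1 was at 1986, 2653 and 2339 against 3053, 4146 and 4958 (0.80, SE 0.26), beside 1.93 (SE 0.47). In B6→B6 grafts these genes thus stood lower in cluster 3 than in cluster 0. A p that misses the threshold does not show that the 2 clusters responded alike.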

How the data were processed

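Single cells of 8 left lung grafts were measured by droplet sequencing of transcript 3′ ends (10000 cells loaded per graft). The authors aligned reads with Cell Ranger to mm10 (GRCm38), kept cells of at least 200 UMIs and genes seen in at least 3 cells, estimated free RNA with SoupX, clustered cells with Seurat and named them with clustifyr. The deposited values are whole UMI counts per gene and cell. Whether they were taken before or after the free RNA correction was not stated, and no doublet caller was run here. The names of the cells number the HLA→B6 mice otherwise than the sample labels, and the sample labels were used. The mouse was the replicate, and library totals ran from 1669076 to 12445769 UMIs.

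UMIs of cluster 3 were summed per graft and tested with edgeR 4.0.16 (R 4.3.3, quasi-likelihood F test, TMM, filterByExpr with a minimum count of 10, Benjamini-Hochberg adjustment over all genes tested, threshold 0.05) over grafts with at least 10 cluster 3 cells. SE was the size of the log2 fold change divided by the square root of F. Adjusted p-values in the report are from edgeR. Shares were compared by two-sided exact permutation tests over grafts, which went through all splits of the group labels and doubled the smaller tail. Binomial intervals came from scipy 1.17.1, and DESeq2 1.42.0 was an alternative to edgeR. Other alternatives changed the normalization, the filter, the minimum number of cells, the cells kept and the replicates. Levels are CPM of the sum, and scaled CPM carry the TMM factor. Intervals and floors cover counting error only. The fit was tested on simulated data with 200 of 1260 genes changed 4-fold, of which 169 were called beside 8 unchanged genes, and with none changed it called 0. Same-numbered grafts of the groups did not deviate together (r = 0.02 for number 1 and -0.02 for number 3). These are too few pairs to decide whether the numbers pair grafts, and none was assumed.

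Genes were named by rule: Col1a1, the 20 leading genes, genes past the threshold, the 10 of smallest p in each direction whose groups did not overlap (as fewer than 5 passed), the 3 most abundant tested genes of each pathway list, and genes past the threshold of the interaction, of which 1 is not reported here. Other genes in the text were picked with their values in view, as were the genes of the fits within classes and of the fit without B6→B6 graft 1. The members and lists were chosen with earlier results of these data known. Listed genes not measured were Pln, Mmp10, A2m, Cxcl11, C4a and Mx2.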

Additional observations from a re-analysis of the deposited data

Results flagged for a closer look

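The difference between HLA→B6 and B6→B6 grafts was another one in cluster 3 than in cluster 0 for Cyr61 and Thbs1 by edgeR's test of the interaction. The difference of log2 fold changes was -4.76 for Cyr61 (SE 0.67) and -5.03 for Thbs1 (SE 0.86). In cluster 3 the mean level of Cyr61 was 689 scaled CPM in B6→B6 and 105 in HLA→B6 grafts, and in cluster 0 it was 14.1 and 52.6. Thbs1 had means of 333 and 56.1 in cluster 3 and of 4.41 and 52.4 in cluster 0. The B6→B6 levels in cluster 0 were near the floor and rest on few UMIs.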

How the results depend on the processing

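The number of genes that passed in cluster 3 moved from 4 to 27 with DESeq2, 27 with at least 20 cells per graft and 50 with no filter on low counts. It was 2 for cells with at least 500 UMIs (both among the 4), 2 with the same number of cells per graft (0 of the 4), and 0 with at least 5 cells per graft, without cells of mixed lineage, without cells of shared barcodes and in fibroblast-led cells (unadjusted p under 0.05 in 77, 51, 75 and 106 genes). Leaving out 1 graft at a time gave 0 to 27 genes. The interaction with cluster 0 gave 20 genes against cluster 1, 5 with RLE size factors, 1 with no mouse block, 0 with a minimum count of 30 (113 at an unadjusted p under 0.05), and 0 to 23 without 1 graft. Cluster 3 cells per 100 cluster 0 cells, in place of their share of structural cells, were fewer in HLA→B6 grafts (difference -9.41, exact permutation p = 0.5), and genes per cell at 1000 UMIs differed by -0.616 (exact permutation p = 1). Without 1 graft at a time, the shares of structural and of all cells differed by 0.597 to 3.31 and 0.435 to 1.43 percentage points, the mural-led share by 16.0 to 30.6, and genes per cell by 3.94 to 11.3. The cause of these changes was not tested.

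With the replicate number as a block, 0 genes passed (79 at an unadjusted p under 0.05), and the block gave differences of 1.87 percentage points in the share of structural cells, 0.708 in the share of all cells and 15.7 in the mural-led share, and 8.96 genes per cell. The log2 fold changes with the block turned to 0.46 for Dcn, 0.29 for C4b, 0.89 for H2-Ab1, 0.90 for H2-Aa and 0.065 for Apoe.

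Of 984 pairs of a named gene and a setting, 847 kept direction and side of the threshold, 42 lost and 51 gained the call, and 44 turned. Most pairs belong to genes that did not pass, and such genes have no call to lose. Of the settings that tested them, Iigp1 passed in 7 of 14, H2-Q7 in 9 of 18, Fos in 10 of 18 and Cyr61 in 7 of 18. In the interaction, Cyr61 passed in 8 of 10 settings and Thbs1 in 7 of 9. The pairs that turned had log2 fold changes of 0.29 (Bgn), 0.20 (Col4a1) and -0.49 (Cd74) with the same number of cells per graft. With at least 5 cells they were 0.17 (Col4a1), 0.030 (Postn), 0.30 (H2-Ab1) and 0.33 (H2-Aa), and with at least 20 cells 0.31 (Postn) and -0.00692 (Cxcl12). In fibroblast-led cells they were -0.53 (Col4a2), 0.13 (Ltbp4), 0.22 (Serping1), 0.52 (C4b), -0.27 (Cd74) and 0.20 (Lrp1). In mural-led cells they were -0.26 (Col4a2), -0.40 (Spp1), 1.69 (H2-Ab1), 1.02 (H2-Aa) and -0.11 (Ifitm2). With linked libraries as a block they were 0.21 (Postn) and 0.36 (C4b), without shared barcodes -0.00546 (Cxcl12), -0.14 (C3) and 0.40 (C4b), and without mixed cells 1.86 (H2-Ab1) and 1.94 (H2-Aa). Without 1 graft at a time the ranges were -0.31 to 0.055 for Col4a1, -0.92 to 0.31 for Postn, -0.33 to 1.52 for Cxcl12, -0.82 to 2.20 for C4b, -0.76 to 0.15 for H2-Ab1, -0.75 to 0.18 for H2-Aa and -0.052 to 0.19 for Ifitm2.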
